A study of Mus musculus with 11 samples.

Results

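The RING1B ChIP-seq of mouse embryonic stem cells (ESCs) is described here through every peak of its deposited list, which held 4180 of the 36229 peaks in the 4 lists of the series. No peak was left out and no score threshold was applied. RING1B was precipitated from the feeder-free ESC line E14Tg2A, grown on gelatin in serum with LIF, using a rabbit antibody made in house. It was 1 library, so none of the peak values has a replicate check, and per the labels its DNA was prepared by another protocol than the kit used for the HA and CBX7 ChIPs, although the study's methods name that kit for the HA line alone. The IgG control was not analysed here. The other lists came from a CBX7 ChIP (5081 peaks) and from 2 replicates of an anti-HA ChIP in ESCs carrying 3 HA tags on endogenous CBX6 (21865 and 5103 peaks). Expression was taken from 4 RNA-seq libraries of ESCs infected with lentiviruses, of which 2 received a control hairpin (shCtl) and 2 a hairpin targeting Cbx6 (shCbx6). Which of the study's Cbx6 shRNAs was sequenced is not given in the labels. The titles of the ChIP samples name no shRNA, and whether any culture was shared with the RNA libraries is not given in those titles.

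RING1B is an E3 ligase at the catalytic core of Polycomb repressive complex 1 (PRC1), which places a single ubiquitin on histone H2A. Canonical PRC1 holds a CBX protein, and the chromodomains of some of these, CBX7 among them, read the H3K27me3 mark of Polycomb repressive complex 2 (PRC2), while variant PRC1 complexes carry RYBP or YAF2 and reach chromatin in other ways. In ESCs, Polycomb complexes are known to sit at unmethylated CpG islands of developmental genes that are silent until differentiation.

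The sequence under the peaks is shown with windows of 300 bases from the mm9 assembly, plus strand, centred on peaks at the extremes of the list, with every CpG pair in capitals because CpG density is the feature that peaks are compared on below. Of these, 5 were set by rule, and the Ddx4 window was chosen after the values were seen. The first window is the middle of the widest peak (chr6:52169393-52169692, in the Hoxa cluster) and held 3 CpG.
widest peak, Hoxa: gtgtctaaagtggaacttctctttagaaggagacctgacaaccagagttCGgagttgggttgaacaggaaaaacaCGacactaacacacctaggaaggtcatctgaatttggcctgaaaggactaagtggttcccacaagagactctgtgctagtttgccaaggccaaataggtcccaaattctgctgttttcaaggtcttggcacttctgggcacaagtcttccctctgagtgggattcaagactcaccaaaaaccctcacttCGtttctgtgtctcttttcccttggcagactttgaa
The window at the highest listed score (chr3:55586098-55586397, beside the start of Mab21l1) held 8 CpG.
highest listed score, Mab21l1: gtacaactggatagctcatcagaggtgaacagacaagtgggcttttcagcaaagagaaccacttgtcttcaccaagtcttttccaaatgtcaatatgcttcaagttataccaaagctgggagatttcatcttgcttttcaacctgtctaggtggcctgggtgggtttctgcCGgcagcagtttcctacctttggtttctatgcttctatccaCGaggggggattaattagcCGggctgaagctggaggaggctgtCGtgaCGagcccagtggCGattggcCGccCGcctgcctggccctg
The lowest score in the list (chr6:52256142-52256441, between Hoxa13 and Evx1, 6450 bp from the start of Evx1) had a window with 15 CpG.
lowest score, near Evx1: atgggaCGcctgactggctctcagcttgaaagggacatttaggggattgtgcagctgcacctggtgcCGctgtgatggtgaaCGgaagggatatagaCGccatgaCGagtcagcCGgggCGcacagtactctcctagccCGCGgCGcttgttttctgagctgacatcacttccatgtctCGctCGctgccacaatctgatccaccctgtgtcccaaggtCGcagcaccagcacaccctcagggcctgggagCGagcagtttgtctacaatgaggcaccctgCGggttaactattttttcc
The peak farthest from any annotated start (chr16:5885446-5885745) had a window with 26 CpG.
farthest from a start: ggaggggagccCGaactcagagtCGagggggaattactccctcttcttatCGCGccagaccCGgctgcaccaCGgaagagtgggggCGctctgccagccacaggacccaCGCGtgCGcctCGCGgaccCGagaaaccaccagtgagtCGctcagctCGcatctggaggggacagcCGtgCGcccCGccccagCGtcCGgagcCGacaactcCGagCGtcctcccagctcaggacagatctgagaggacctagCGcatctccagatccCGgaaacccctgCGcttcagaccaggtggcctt
The most highly expressed gene with a peak directly over a start (Cdk4, chr10:126500460-126500759) had 25 CpG in its window, which held the E-box CACGTG 3 times.
Cdk4: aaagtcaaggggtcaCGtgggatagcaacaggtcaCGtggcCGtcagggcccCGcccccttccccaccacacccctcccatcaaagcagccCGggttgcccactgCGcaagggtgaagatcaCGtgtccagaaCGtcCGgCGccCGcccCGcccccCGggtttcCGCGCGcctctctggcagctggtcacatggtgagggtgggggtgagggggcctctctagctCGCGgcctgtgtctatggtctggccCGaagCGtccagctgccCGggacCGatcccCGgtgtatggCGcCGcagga
The germline gene with the highest score (Ddx4, chr13:113442296-113442595) had 40 CpG, with CACGTG present 1 time and TCCCGC, the core of E2F sites, 1 time on either strand.
Ddx4: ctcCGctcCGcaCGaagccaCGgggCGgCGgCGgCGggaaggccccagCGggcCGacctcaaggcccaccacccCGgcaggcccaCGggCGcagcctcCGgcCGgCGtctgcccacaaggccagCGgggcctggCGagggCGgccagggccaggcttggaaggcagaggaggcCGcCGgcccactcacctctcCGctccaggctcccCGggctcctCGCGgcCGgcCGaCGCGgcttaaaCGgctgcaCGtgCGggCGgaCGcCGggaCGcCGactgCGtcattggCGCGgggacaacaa
The middle of a very wide peak was thus poor in CpG in the Hoxa window, while the narrow, low-scoring peak over Cdk4 was rich in it.

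RING1B peaks were broad and varied widely in width. The median width was 2315.5 bp (quartiles 1730 and 3141 bp), the narrowest peak measured 580 bp and the widest 45341 bp. Together the peaks covered 12.1 Mb, or 0.459% of chromosomes 1 to 19 and X, and the widest 418 peaks (10% of the list) held 28.5% of those bases. Peaks of at least 10 kb numbered 100 (2.39% of the list) and peaks of at least 20 kb numbered 6, whereas 92 were under 1 kb. In the CBX7 list the median width was 2076 bp with 102 peaks of at least 10 kb, and in the CBX6 lists it was 1438 bp with 4 such peaks in replicate 1 and 1485 bp with 76 in replicate 2. These lists were called separately at unknown depth, so their widths are set side by side without a test.

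The score in the list is the authors' MACS score, which grows as a peak becomes less likely under the local background. Scores ran from 50.03 to 3233.1 with a median of 402 (quartiles 129 and 1440). The value 3100 was given to 507 peaks exactly, 24 stood above it and the highest below it was 3099.7, so the 531 peaks at 3100 or more (12.7%) are treated as 1 class without order. At the other end, 791 peaks (18.9%) scored under 100. Width and score rose together across peaks (Spearman's rho 0.851, n = 4180; 0.794 over the 3649 peaks under 3100), a description in which both values come from the same reads.

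**Figure D1:**
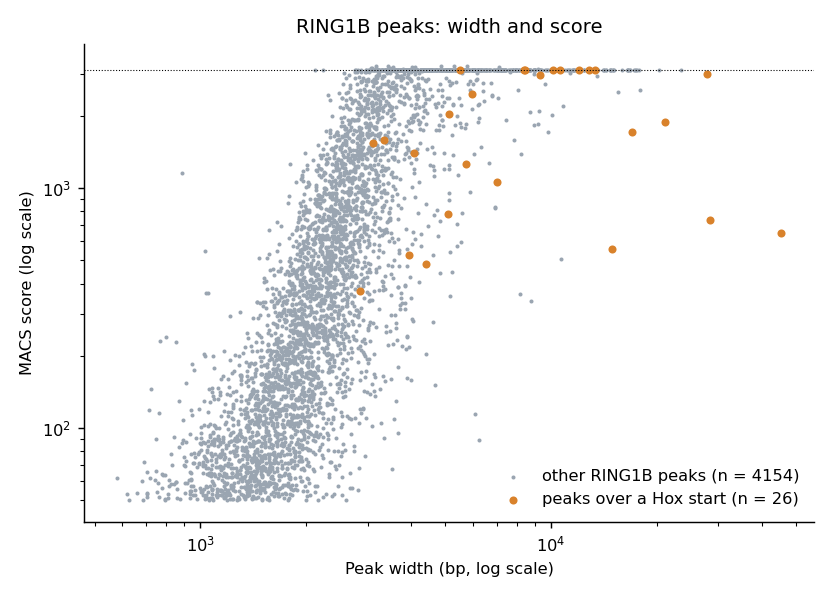
Width in bp against MACS score for all 4180 RING1B peaks, both on log scales, with the 26 peaks that contain a Hox start in orange and a dotted line at 3100. Most peaks follow 1 band that flattens at 3100, while 6 Hox peaks of at least 10 kb lie to the right of it with scores under 3100.

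The widest peaks lay over homeobox clusters and single developmental regulators. The widest covered chr6:52146872-52192212 and contained the starts of Hoxa3, Hoxa5, Hoxa6, Hoxa7, Hoxa9 and Hoxa10, transcription factors that set position along the body axis, yet its score was only 652.84. It was matched by 2 CBX7 peaks, by 10 peaks of CBX6 replicate 1 no wider than 5460 bp and by 2 peaks of CBX6 replicate 2, the wider of 40544 bp. Next came 28493 bp over Hoxd9 to Hoxd12 (chr2:74511816-74540308, score 734.77) and 27829 bp over Hoxb5 to Hoxb8 (chr11:96139818-96167646, score 2995.8). The others of the widest 10 contained starts of Uncx (23519 bp), Hoxa2 and Hoxa3 (21178 bp), Six3 (20352 bp), Hand2 (17927 bp), Pax7 (17862 bp), Nkx2-2 (17598 bp) and Pax2 (17416 bp). All of these except Hand2, a basic helix-loop-helix factor of heart and limb, are homeobox or paired-box genes.

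Of the 100 peaks of at least 10 kb, 87 were in the top score class and 13 were not, the Hoxa, Hoxb and Hoxd peaks above among them. A CBX7 peak of at least 10 kb overlapped 79 of the 100, one of CBX6 replicate 2 overlapped 61 and one of CBX6 replicate 1 overlapped 2. CBX6 replicate 1 instead had a median of 3 separate peaks inside each of them. In 98 of the 100 a protein-coding start lay inside, 121 coding genes in all, of which 115 had an expression value. In shCtl 1, 109 of the 115 were under 1 FPKM (fragments scaled by transcript length and library size, with 1 as the expression threshold of the study), and in shCtl 2, 111 were.

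Beneath peaks of at least 10 kb, 6 genes reached 1 FPKM in at least 1 shCtl library, and 5 of them are described here, picked after their values were seen. Zic2, a zinc finger factor of early neural tissue, had 7.45 and 3.88 FPKM in shCtl 1 and 2. Ostm1, a lysosomal membrane protein, had 5.77 and 6.96 FPKM. Commd3 had 5.31 and 7.27 FPKM beneath the same 12446 bp peak as its neighbour Bmi1, a PRC1 subunit, with 1.94 and 1.39 FPKM. Pax6, a regulator of eye and forebrain, had 1.47 and 0.569 FPKM. Zic2, Ostm1, Commd3 and Bmi1 were over the threshold in both libraries, and Pax6 in shCtl 1 alone.

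Of the 24 peaks listed above 3100, the 10 with the highest values are named without reading an order into them, and they measured 3166 to 7089 bp. Mab21l1, a gene of eye development, carried the peak of 3233.1 (chr3:55583595-55588900, 5306 bp) and had 0.0117 FPKM in shCtl 1 and 0 in shCtl 2. Lrfn5, a synaptic adhesion protein, was listed at 3225.3 with 0.00858 and 0 FPKM. Pgr, the progesterone receptor, scored 3214.4 with 0.0407 and 0.0625 FPKM. Cachd1 at 3207.5 (2.90 and 3.06 FPKM) and Cdh2 at 3182.7, the N-cadherin gene (1.30 and 0.974 FPKM), were above the class medians of 0.0474 and 0.0408 FPKM. The other 5 of the 10 contained no protein-coding start, and among them the nearest annotated starts of 3 were those of Tbx18 (score 3225.3), Sim2 (3221.9) and Nr2f2 (3180.8), at 5087, 6479 and 24623 bp from the peak edge. The 3 lowest scores were 50.03 near Evx1, 50.05 over Wdr81 (2.48 and 2.81 FPKM) and 50.06 over 5730508B09Rik (0.777 and 1.19 FPKM).

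Most RING1B peaks lay on gene starts. A peak counted as near a start where it reached within 2.5 kb of one in the GENCODE annotation of mm9, and 3401 of 4180 did so (81.4%, 95% Wilson interval 80.2 to 82.5). A start lay inside 3172 peaks (75.9%), the gap to the nearest start was 2.5 to 10 kb for 7.87%, 10 to 50 kb for 7.58% and over 50 kb for 133 peaks (3.18%). With a single start per gene, its outermost end, and with only the genes that have an FPKM value, the share was 70.2%. In peaks that contained a start, the centre lay a median of 176 bp downstream of the nearest one (quartiles -28 and 448 bp), and 71.2% of these centres were downstream. Starts of at least 2 gene symbols lay inside 486 peaks (11.6%), and 132 held coding starts on both strands.

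The 779 peaks away from starts were narrower and scored lower. Their median width was 1959 bp against 2400 bp near starts, their median score 219 against 459, and 4.88% (interval 3.57 to 6.62) against 14.5% (13.4 to 15.7) were in the top score class. CBX7 peaks overlapped 86.1% of them and 90.9% of those near starts. The centre of 41.0% lay inside a gene. The farthest peak was 560394 bp from any annotated start. Some peaks may appear distal because a gene is missing from the annotation, as Sox1 is, and this was not tested.

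Peaks were spread unevenly over chromosomes, and X was the sparsest. Chromosome X had 130 peaks, or 0.780 per Mb, while autosomes ranged from 1.03 on chromosome 16 to 2.44 on chromosome 11 with a median of 1.67. Counted per 100 coding genes, the order changed. X had 14.0, within the autosomal range of 12.7 on chromosome 7 to 30.7 on chromosome 18 (median 19.6). None of the X peaks reached 10 kb, and 7.69% were in the top score class, under the autosomal range of 9.43% to 16.7%. E14Tg2A is a male line with a single X, and copy number and binding cannot be told apart here.

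**Figure D2:**
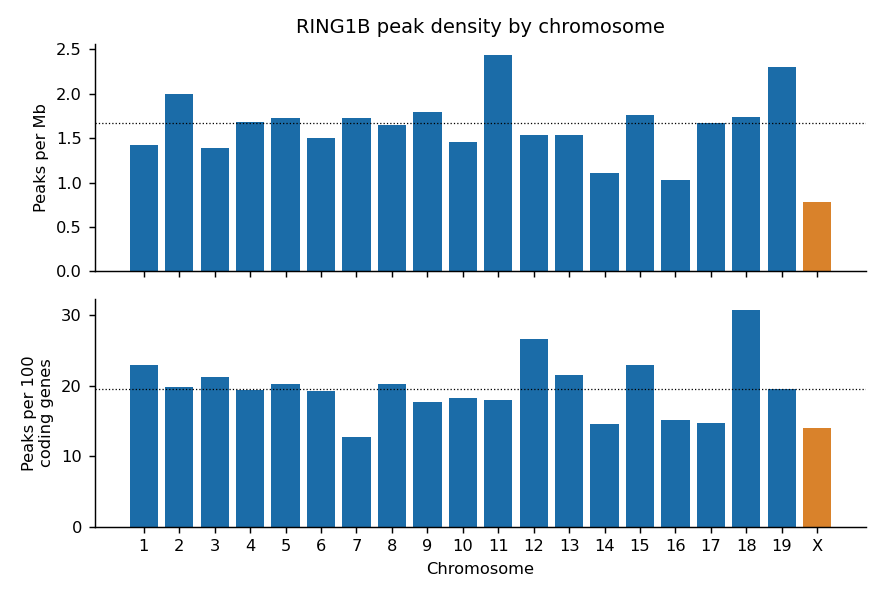
RING1B peaks per Mb (top) and per 100 coding genes (bottom) on each chromosome, with X in orange and a dotted line at the autosomal median of 1.67 and 19.6. X is lowest per Mb at 0.780 and lies inside the autosomal range per 100 coding genes.

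A small part of the peaks stood in clusters. Neighbours no more than 10 kb apart were chained, which gave 91 clusters of at least 3 peaks with 343 peaks (8.21%), 235 pairs and 3367 single peaks (80.6%), and the median gap between neighbours on a chromosome was 270 kb. The count of clustered peaks depended on these settings, with 264 at gaps of up to 5 kb, 537 at up to 25 kb and 226 when only scores of at least 100 were used. Clustered peaks were wider (median 2888 against 2263 bp for single peaks) and scored higher (656 against 373), and 59.5% against 85.5% reached a start. The Hoxd cluster with Evx2 held 9 peaks over 110 kb, of which 78.3% was bound, and all 10 of its genes with a value were under 1 FPKM in both shCtl libraries. The Hoxb cluster held 9 peaks over 98.4 kb with 80.9% bound, and the Hoxa cluster 8 peaks over 124 kb with 83.4% bound. Outside Hox, 9 peaks over 47.3 kb lay around Pcdhgc5, a clustered protocadherin of neuronal adhesion, with no score over 1246. Around Nr2f2, a nuclear receptor of mesenchyme and vein, 7 peaks covered 84.2% of 46.7 kb although only 1 coding start lay in that stretch, and around Hoxc12 and Hoxc13 there were 7 peaks in 42.8 kb.

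RING1B peaks mostly coincided with those of CBX7, and more so as their score rose. An overlap of at least 1 bp with a CBX7 peak was found for 90.0% of RING1B peaks (interval 89.0 to 90.9), and seen from the CBX7 list for 77.3% of its peaks. CBX6 replicate 2 overlapped 78.5% of RING1B peaks and 74.6% of its own peaks overlapped RING1B. CBX6 replicate 1 overlapped 77.0%, and only 17.6% of its larger list overlapped RING1B. All 3 other lists overlapped 2685 RING1B peaks (64.2%), whose median score was 841, and none overlapped 171 (4.09%), whose median score was 73.6. From the class under 100 to that of 3100 or more, the overlap with CBX7 was 63.3%, 91.4%, 99.8%, 100% and 100%, with CBX6 replicate 2 it was 40.1%, 73.9%, 95.1%, 99.5% and 99.8%, and with CBX6 replicate 1 it was 55.8%, 71.5%, 82.8%, 90.4% and 98.1%. The median width of these classes ran from 1435 to 5255 bp, and the part of width in the overlap was not tested.

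Genes with a RING1B peak within 2.5 kb of a start, called start-site genes here, numbered 3355 of 21921 genes with a position and an expression value (15.3%). They were expressed at a low level. In shCtl 1, 70.8% of them were under 1 FPKM (interval 69.3 to 72.3) and in shCtl 2 70.6% (69.0 to 72.1), against 46.5% and 46.6% of all other genes. Their median was 0.215 and 0.212 FPKM, and the median of the other genes was 1.77 and 1.83 FPKM. At the other end, 5.93% and 6.02% of start-site genes had 10 FPKM or more, against 30.6% and 31.1% of the other genes. Of start-site genes, 15.0% and 15.6% were listed at exactly 0, against 26.8% and 27.4% of the other genes. All but 3 of the 1087 olfactory receptors were among the other genes, and 1045 and 1053 of the 1087 were listed at 0. In bulk libraries, fewer cells expressing a gene and less RNA per cell cannot be told apart.

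Expression was lower in each higher score class. Under 1 FPKM in shCtl 1 were 50.1% of the 523 genes whose best peak scored under 100, 61.9% from 100 to 500, 74.7% from 500 to 1000, 82.9% from 1000 to 3100 and 90.3% of the 549 genes in the top class. The shares in shCtl 2 were 49.5%, 60.5%, 75.6%, 83.2% and 90.9%. Median levels went from 0.986 to 0.0474 FPKM in shCtl 1 and from 1.12 to 0.0408 FPKM in shCtl 2. The genes of the lowest class were thus close to the share of all genes under 1 FPKM (50.2% in each library). In every class the shCtl libraries differed by less than neighbouring classes did.

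**Figure D3:**
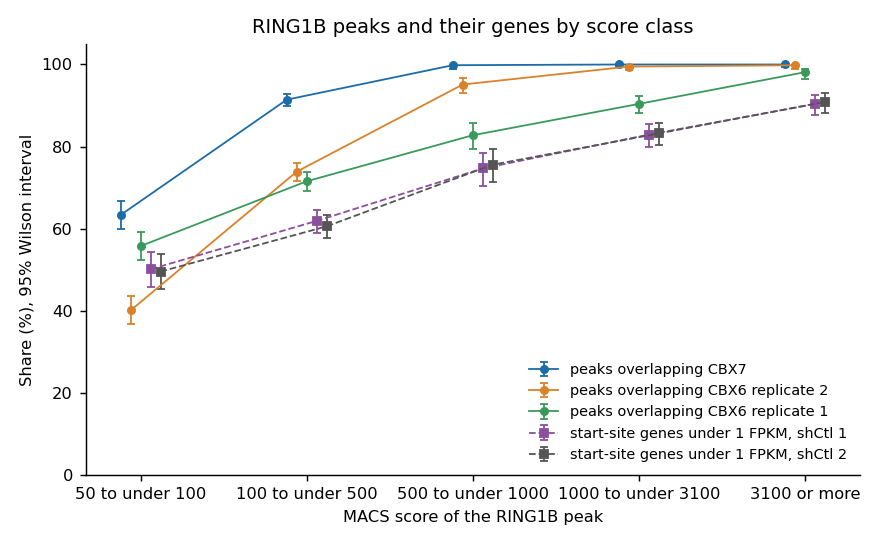
Share in % by score class of RING1B peaks that overlap CBX7, CBX6 replicate 2 or CBX6 replicate 1 peaks (circles, solid lines) and of start-site genes under 1 FPKM in shCtl 1 and 2 (squares, dashed lines), with 95% Wilson intervals that cover counting error only. All lines rise with score, from 63.3% to 100% for CBX7 and from 50.1% to 90.3% for genes under 1 FPKM in shCtl 1.

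RING1B peaks were rich in CpG, but the score did not follow CpG density over whole peaks. Over whole peaks the observed CpG count was a median of 0.591 of that expected from base composition (quartiles 0.513 and 0.686), and in the central 300 bases it was 0.761. Windows of 2315 bases around all coding starts had a median of 0.472, and those with a RING1B peak 0.608. By score class, the median over whole peaks was 0.574, 0.591, 0.575, 0.594 and 0.605, and rho between score and this ratio was 0.0473 (n = 4180). By width class, the median in the central 300 bases was 0.7185, 0.799, 0.774, 0.594 and 0.530, from under 1.5 kb to 10 kb or more. The part of width in the relation of score and CpG was not tested.

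RING1B was found most often at starts that were both CpG rich and weakly expressed. Among coding genes under 1 FPKM in shCtl 1, 4.26% had a peak when the 300 bases around the start had a ratio under 0.4, 28.4% from 0.4 to 0.6, 51.5% from 0.6 to 0.8 and 68.6% (interval 65.9 to 71.2) at 0.8 or more. At 10 FPKM or more the shares in the same order were 2.62%, 4.27%, 3.58% and 3.08%. In shCtl 2 the corresponding shares at 0.8 or more were 69.8% under 1 FPKM and 3.15% at 10 FPKM or more. Genes of 1 to 10 FPKM had a peak in 18.6% and 18.8% at 0.8 or more, between the other classes, but in 8.66% and 8.52% under 0.4, above both.

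**Figure D4:**
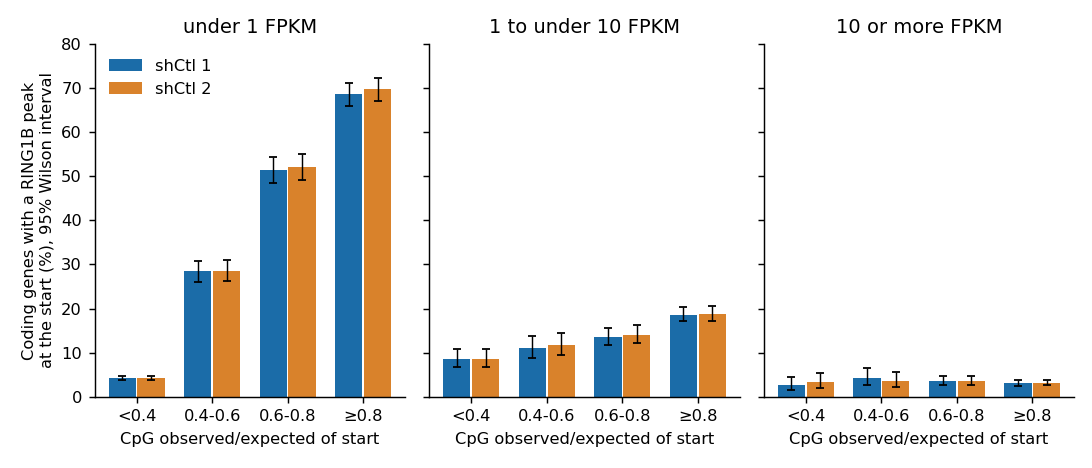
Share in % of coding genes with a RING1B peak at the start, by CpG observed/expected ratio of the 300 bases around the start (x axis) and by FPKM class (panels), for shCtl 1 and shCtl 2, with 95% Wilson intervals. The share climbs with CpG from 4.26% to 68.6% among genes under 1 FPKM in shCtl 1 and stays under 5% among genes of 10 FPKM or more.

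The E-box CACGTG, which several basic helix-loop-helix factors bind, was found in the central 300 bases of 7.75% of peaks and in 7.53% of coding start windows of the same length. By score class its share went from 12.6% through 8.57%, 5.92% and 5.82% to 3.01% (interval 1.86 to 4.84). Start windows of genes with 10 FPKM or more in shCtl 1 held it in 23.8% of 185 windows with a RING1B peak (interval 18.2 to 30.4) and in 10.4% of 5507 without, and in shCtl 2 in 23.7% and 10.5%. TCCCGC, searched on both strands, was in 37.0% of peak centres and 28.8% of coding start windows, with 32.7%, 39.6%, 40.4%, 37.0% and 32.0% from the lowest to the highest score class. The score classes differed in median width, from 1435 to 5255 bp, and centres of wide peaks lay farther from starts. Among peaks containing a start, 94.6% of those under 1.5 kb had their centre within 500 bp of it. At 10 kb or more 24.5% did, and the part of width in the motif shares was not tested. A match of letters shows no bound factor.

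Developmental regulators were covered by RING1B at most of their starts. On 10 lists of developmental transcription factors and ligands with 307 genes, 250 (81.4%) were start-site genes, while 15.3% of all genes were. These lists made up 27.1% of the 549 genes of the top score class, 0.956% of those with a best score under 100, and 1.40% of all genes. The lists were chosen with earlier results of these data known, so the counts describe the peaks and carry no test.

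Hox genes had a peak at 36 of 39 starts, 13 of them in the top class, and Hoxc9, Hoxc10 and Hoxc11 had none. All 36 were under 1 FPKM in both shCtl libraries, and the highest by mean was Hoxc13 with 0.393 and 0.549 FPKM. The 3 Hox genes without a peak were silent as well, with no more than 0.0349 FPKM. Other homeobox genes had a peak at 92 of 96 starts, 70 of them in the top class. The highest of them was Gbx2, a hindbrain regulator, with 20.8 and 21.0 FPKM under a peak scoring 1391.6. Six4 (6.94 and 5.91 FPKM) and Nkx6-3 (4.55 and 5.36 FPKM) lacked a peak, as did Meis3 (0.747 and 0.643 FPKM) and Pax4, which was listed at 0 in both libraries.

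Forkhead genes were split by expression. A peak was at 25 of 44 starts, 18 in the top class, and of the 25, 22 in shCtl 1 and 21 in shCtl 2 were under 1 FPKM, whereas of the 19 without a peak 7 and 6 were. The widest peak was that of Foxd2 at 14336 bp, with 0.0125 and 0.0247 FPKM, and Foxa2, an endoderm regulator, had a 13029 bp peak with 0.0471 and 0.0155 FPKM. Foxo1 and Foxo3, which respond to insulin signalling, had peaks scoring only 65.36 and 90.76 with 5.99 and 6.28 FPKM and 7.72 and 9.43 FPKM. Foxd3 was an exception with a score of 2706.7 and 16.0 and 15.0 FPKM. Sox genes had peaks at 15 of 18 starts, and the 3 without, Sox2 (133 and 152 FPKM), Sox12 (10.8 and 11.0 FPKM) and Sox15 (7.60 and 8.78 FPKM), were the 3 most expressed members. T-box genes had 13 of 16, Gata genes 5 of 6, and genes of a basic helix-loop-helix list, which holds neural factors but also Hand, Twist and other non-neural ones, 22 of 26. Tbx2 had a 16819 bp peak and Gata3 one of 15020 bp, and Gata1 alone of the Gata genes lacked a peak at 0.445 and 0.615 FPKM.

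Of secreted ligands, WNT genes had a peak at 17 of 19 starts and all 17 were under 1 FPKM in both shCtl libraries. Wnt5a carried the widest at 8987 bp. FGF genes had 13 of 22, and Fgf4, an ESC-expressed ligand with 68.3 and 58.9 FPKM, had none. BMP and GDF genes had 12 of 21. Bmp4 had a peak of 371 with 22.4 and 20.7 FPKM, and Gdf3, with 38.6 and 39.8 FPKM, had none. Among cell-cycle inhibitors of the CDK class, Cdkn1c was in the top class with 9.39 and 11.4 FPKM, Cdkn2c scored 2175.3 with 0.301 and 0.364 FPKM and Cdkn2a 1814.1 with 2.96 and 1.93 FPKM. Cdkn1a, Cdkn1b, Cdkn2b and Cdkn2d had no peak.

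Polycomb genes themselves had peaks at a few starts. Of the CBX genes of PRC1, Cbx8 was in the top class with a peak of 16614 bp and 0.305 and 0.201 FPKM, Cbx2 scored 468.18 with 8.90 and 9.52 FPKM, and Cbx7 (76.2 and 69.9 FPKM) and Cbx6 (17.4 and 14.9 FPKM) had no peak. Of 17 other PRC1 genes, Bmi1, Yaf2 (score 785.59, 1.97 and 1.90 FPKM) and E2f6 (316.75, 8.96 and 10.5 FPKM) had one, a share of 17.6% beside 15.3% of all genes. None of the 17 was under 1 FPKM in either shCtl library, whereas the 15.3% covers genes of all expression levels. Rnf2, which encodes RING1B, had none at 55.2 and 58.9 FPKM. Of 11 PRC2 genes only Phf19 had a peak (818.09, 2.36 and 3.37 FPKM). The methyltransferase genes Ezh2 (71.0 and 86.3 FPKM) and Ezh1 (7.61 and 8.72 FPKM), the core subunits Eed (142 and 159 FPKM) and Suz12 (78.0 and 83.2 FPKM), and Jarid2, Mtf2, Phf1, Aebp2, Rbbp4 and Rbbp7 had none.

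**Figure D5:**
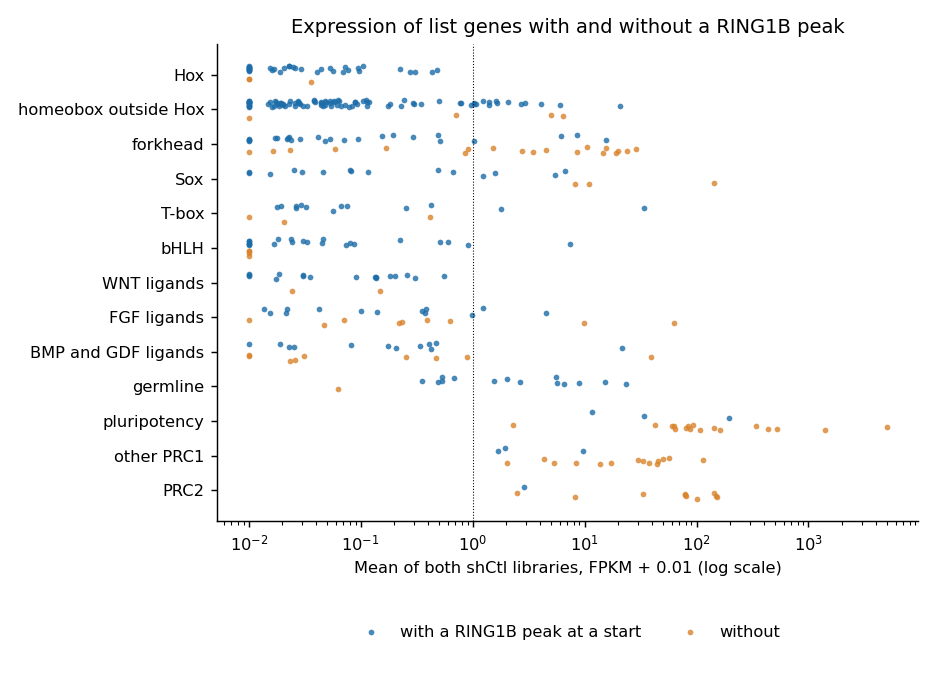
Mean FPKM of both shCtl libraries plus 0.01 (x axis, log scale) for the genes of 13 lists, with a RING1B peak at a start in blue and without one in orange, 1 point per gene, and a dotted line at 1 FPKM. Hox genes all lie left of the line, and most pluripotency and PRC2 genes lie right of it without a peak.

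Pluripotency genes, which label these cells as ESCs, carried RING1B about as often as all genes did. The ESC markers Pou5f1 (1359 and 1452 FPKM) and Nanog (321 and 359 FPKM) were high, and all 8 ESC markers exceeded 90 FPKM in both shCtl libraries. Of 6 fibroblast markers, Thy1 was highest with 1.68 and 1.64 FPKM and Fap was listed at 0 in both. Of the neural progenitor markers, Tubb3 had 35.2 and 29.1 FPKM, Pax6 1.47 and 0.569 FPKM and Nes 0.673 and 0.720 FPKM. A peak was found at 3 of 20 pluripotency genes, where the share over all genes was 15.3%. None of the 20 was under 1 FPKM in either shCtl library. Of 5961 genes with a shCtl mean of 10 FPKM or more, 206 had a peak. Esrrb, a nuclear receptor of naive ESCs, had a score of 1143.3 with 203 and 189 FPKM. Prdm14, a regulator of naive ESCs and germ cells, scored 162.86 with 12.3 and 11.0 FPKM. Tbx3 scored 114.94 over 6091 bp with 34.3 and 34.0 FPKM. The primitive endoderm markers Gata4, Gata6, Pdgfra, Sox17, Sox7 and Dab2 all had a peak and were under 1 FPKM in both shCtl libraries, with scores of 2930.8 or more except for Dab2 at 61.55.

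Germline genes formed a group of narrow, low peaks that mostly did not overlap CBX7. A peak was at 14 of 15 starts, all but Tex101, with a median score of 141, a median width of 1555 bp and none in the top class. CBX7 overlapped 5 of the 14, CBX6 replicate 2 overlapped 4 and CBX6 replicate 1 overlapped 11, against 28, 26 and 27 of the 28 peaks at Hox starts. The score class from 100 to 500, in which 10 of the 14 fell, had a CBX7 overlap of 91.4% over all its peaks. The overlap was 63.3% over all peaks scoring under 100, where 3 of the 14 fell, and 57.5% over all peaks under 1.5 kb, where 6 of the 14 fell. CACGTG was in the central window of 5 of the 14 and TCCCGC in 8, beside 7.75% and 37.0% of all peaks. Scores reached 512 at Ddx4, an RNA helicase of germ cells (5.85 and 5.51 FPKM), 309.9 at Tdrkh (0.432 and 0.622 FPKM), 297.38 at Tdrd1 (0.368 and 0.323 FPKM) and 253.61 at Taf7l (0.541 and 0.500 FPKM). The lower peaks were at Slc25a31 (0.840 and 0.501 FPKM), Dazl (3.54 and 1.76 FPKM), Zcwpw1 (9.97 and 7.86 FPKM), Mael (5.81 and 7.25 FPKM), Smc1b (0.465 and 0.505 FPKM), Hormad1 (7.07 and 4.13 FPKM), Mov10l1 (2.23 and 1.82 FPKM) and Sycp1 (2.30 and 0.766 FPKM). The highest expression was that of Stag3, a meiotic cohesin subunit (24.7 and 21.8 FPKM), and Sycp3, part of the synaptonemal complex (16.5 and 14.1 FPKM), both with scores near 100. Several of these genes were transcribed above 1 FPKM in both libraries while carrying RING1B, which no Hox gene was.

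Of the housekeeping and sensory lists, 1 of 83 ribosomal protein genes (Rpl7) and 3 of 1087 olfactory receptors (Olfr94, Olfr95 and Olfr279) had a peak. Olfactory receptors were the quietest of the lists and among the least covered.

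A minority of highly expressed genes did carry a peak over a start. Cdk4, a G1 cyclin-dependent kinase, was highest with 479 and 555 FPKM in shCtl 1 and 2 and a score of 85.43. Slc2a3, a glucose transporter, had 288 and 308 FPKM with a score of 70.27. Then followed Lamp1 (178 and 227 FPKM, score 366.05), Esrrb, Eef1d (191 and 189 FPKM, 485.92), Hdac2 (127 and 132 FPKM, 128.7), Gnas (116 and 122 FPKM, 3100), Tfdp1 (110 and 117 FPKM, 185.11) and Phlda2 (94.8 and 131 FPKM, 255.04). Gnas and Esrrb were the only ones of these 9 with a score over 500. In the top class, 9 genes had a mean of at least 10 FPKM. Grb10, an imprinted regulator of growth, had 62.0 and 73.3 FPKM, and Tpm1, a tropomyosin, 22.4 and 22.6 FPKM, each as the only coding gene at its peak. Of the other 7, 4 shared the peak with a quieter neighbour, as Bub3 (70.7 and 86.0 FPKM) did with Hmx2, which was listed at 0 in both libraries.

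Depletion of Cbx6 moved few start-site genes past the test in the fit without a replicate block. Cbx6 itself had 17.4 and 14.9 FPKM in the shCtl libraries against 9.53 and 5.40 FPKM in the shCbx6 ones. With limma on log2(FPKM + 1), 11 of 11592 genes tested (0.0949%) had an adjusted p under 0.05 over all genes, and 1352 an unadjusted p under 0.05. Of the 1172 start-site genes tested, 1 was called, and 303 had an unadjusted p under 0.05. The call was Mapt, the microtubule protein tau, which went from 6.94 and 7.44 FPKM in the shCtl libraries to 0.645 and 0.914 FPKM after Cbx6 depletion (log2 fold change -2.21, SE 0.165, adjusted p = 0.0322, limma), under a peak scoring 1545.9. With the replicate number as a block, 106 of the 1172 start-site genes were called, beside 388 of the 11592 genes tested. When 1 library was left out, the log2 fold change of Mapt lay between -2.315 and -2.097. The labels do not say that libraries came from separate cultures, so these p-values measure only the spread between these samples.

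Both shCbx6 values were above both shCtl values for 383 start-site genes (32.7%) and below for 301 (25.7%), while over all genes tested the shares were 18.9% and 24.4%. The median log2 fold change of start-site genes was 0.07, with 56.0% above 0, and that of all genes tested was -0.01. Without shCbx6 replicate 2 the median of start-site genes was -0.04, beside -0.05 over all genes tested. Without shCbx6 replicate 1 it was 0.19, beside 0.03. Its sign thus rested on 1 library, and the median of all genes tested moved in the same direction. In shCbx6 1 and 2, 70.0% and 66.3% of start-site genes were under 1 FPKM, against 70.8% and 70.6% in shCtl, and the second shCbx6 library was the lowest of the 4. Over all genes the shares were 50.2% and 49.3% with shCbx6 and 50.2% in each shCtl library. The summed ESC markers were 3155 and 3443 FPKM with shCtl, then 2546 and 2452 FPKM with shCbx6. Among them, Utf1 was higher with shCbx6, at 136 and 191 and then 195 and 254 FPKM. Sox2 overlapped between the groups, at 133 and 152 and then 160 and 140 FPKM. The summed fibroblast markers were 2.29 and 2.32 and then 1.66 and 5.31 FPKM, with Fap listed at 0 throughout. The part of these markers in the difference was not tested.

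The largest differences among start-site genes without overlap between groups were the following. Mras, a RAS-related GTPase, had 27.3 and 26.1 FPKM in the shCtl libraries and then 7.53 and 2.33 FPKM with shCbx6 (limma adjusted p = 0.164). Inhbb, an activin subunit, had 20.2 and 15.6 and then 4.47 and 2.02 FPKM (limma adjusted p = 0.103). Atp2a3, a calcium pump, had 16.6 and 20.3 and then 4.56 and 2.40 FPKM (limma adjusted p = 0.0872), and the homeobox gene Vax2 had 5.96 and 6.17 and then 1.29 and 0.365 FPKM (limma adjusted p = 0.103). In the other direction, Igf2, an imprinted growth factor, had 0.173 and 0.359 and then 2.35 and 30.5 FPKM (limma adjusted p = 0.35). Krt18, a keratin of simple epithelia, had 3.66 and 6.91 and then 13.2 and 122 FPKM (limma adjusted p = 0.389). Car4, a carbonic anhydrase, had 0.276 and 0.381 and then 4.53 and 10.6 FPKM (limma adjusted p = 0.103), and Cyr61, a matricellular protein, had 1.14 and 1.34 and then 4.75 and 23.5 FPKM (limma adjusted p = 0.279). Mir1199 was listed at 0 in both shCtl libraries and at 8.44 and 21.5 FPKM in shCbx6 (limma adjusted p = 0.0757, and 0.0244 with a pseudocount of 0.1). None of these passed the threshold in the fit of all 4 libraries with a pseudocount of 1 and no replicate block. With the replicate number as a block, Mras, Inhbb, Atp2a3, Vax2, Car4 and Mir1199 passed (limma adjusted p from 0.0142 to 0.0362). Cyr61, Krt18 and Igf2 did not (limma adjusted p from 0.0679 to 0.0913). The log2 fold changes of all 9 were larger in size without shCbx6 replicate 1 and smaller without shCbx6 replicate 2, and none changed direction. For Igf2, Krt18 and Cyr61 most of the difference stood in the second shCbx6 library.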

How the data were processed

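The authors aligned ChIP reads to mm9 with Bowtie, keeping reads that map to 1 place, and called peaks in each library with MACS, leaving its defaults apart from a 75 bp shift. The control used for the RING1B call is not given in the sources used here, nor are tool versions. The deposited score is the MACS score of each peak, and the lists hold no read counts, so depth is unknown. RNA reads were aligned with TopHat, and the authors estimated FPKM per RefSeq transcript with Cufflinks. The deposited table, by gene symbol, is named as RPKM in its title and as FPKM in the methods and labels, and its values were treated as FPKM.

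Peaks were intersected with GENCODE starts on mm9 and with the other lists (minimum overlap 1 bp) in Python 3.11.15 (numpy 2.4.6, pandas 2.3.3, scipy 1.17.1, pysam 0.24.0, matplotlib 3.10.9). Of 23290 entries, 21149 symbols matched the annotation by name and 772 by a synonym, and 25 entries were dates. Clusters were chains of at least 3 peaks with gaps of at most 10 kb. The CpG ratio was the number of CpG times the length over the product of the numbers of C and G. Shares have 95% Wilson intervals, which cover counting error only. For shCbx6 against shCtl, limma 3.58.1 in R 4.3.3 was run on log2(FPKM + 1) with a trend and Benjamini-Hochberg adjustment, on genes averaging 1 FPKM or more with shCtl or with shCbx6, without a replicate block. The step was tested on simulated data. Alternatives covered the start window, the score minimum, the overlap, the cluster gap, the FPKM threshold, the pseudocount, the filter, the scaling and each RNA library left out.

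The members, gene lists and tests were chosen with earlier results of these data known. Named were the widest 10 peaks, the 10 highest and 3 lowest scores, the 10 most expressed genes with a peak over a start, the 5 largest clusters, extremes of each gene list (all members of lists of up to 15 genes), and limma calls with the 5 largest rises and falls whose groups did not overlap. A few genes that this rule takes are not reported here.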

Additional observations from a re-analysis of the deposited data

How the results depend on the processing

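The share of RING1B peaks near a start was 81.4%, and it was 78.7% with a window of 1 kb, 85.3% with 5 kb, 83.4% for scores of at least 100 and 77.8% with coding starts only. With a single start per gene and only genes with an FPKM value, an alternative chosen after seeing the data that changes both, it was 70.2%. The overlap with CBX7 was 87.8% when it had to cover 50% of the peak and 92.1% with scores of at least 100 in both lists. Clustered peaks numbered 537 with gaps of up to 25 kb and 226 with scores of at least 100, against 343. Start-site genes under 1 FPKM made up 70.3% by the mean of both shCtl libraries, 70.6% and 70.8% by a single library, 70.7% with a window of 1 kb, 74.2% with scores of at least 100 and 66.6% without genes listed at 0 in both. With a threshold of 0.5 FPKM the share under it was 61.5%. Over all genes, 50.0% were under 1 FPKM by the mean, 35.6% without genes listed at 0 in both, and 45.8% under 0.5 FPKM. The CpG ratio was 0.761 in the central 300 bases against 0.591 over whole peaks.

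The number of start-site genes called by limma was 1, and it was 4 with a pseudocount of 0.1, 4 without a filter, 0 with quantile normalization (306 at an unadjusted p under 0.05, smallest adjusted p = 0.0501) and 0 to 141 with a library left out. When a library is left out, its lone partner is assumed to vary like the other group. With the replicate number as a block it was 106. The numbers give only 2 pairs, whose deviations correlated at 0.266 over all genes tested and 0.478 over start-site genes, too few to pair the libraries, which were taken to share only a number. Mapt missed the threshold without a filter (limma adjusted p = 0.179), with quantile normalization and without either shCtl library. Of 80 alternative values for the named genes, 58 kept their side of the threshold, 18 newly passed it and 4 no longer did, and none changed direction. The cause of these shifts was not tested. Peak values rest on 1 library of unknown depth.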

Other observations

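The longest stretch without a RING1B peak was 17.3 Mb on chromosome X. It held 45 coding genes, of which 39 had an expression value and 31 of those were under 1 FPKM in both shCtl libraries, Dmd and Il1rapl1 among its genes. The widest top-class peaks on X were one of 7782 bp whose nearest start was that of Bcor, a subunit of a variant PRC1, and one of 6221 bp over Sox3, a SoxB1 factor of neural progenitors, with 0.925 and 1.54 FPKM. Bcor had 5 peaks within 34.8 kb. Pcdh19, a protocadherin, had a peak of 5374 bp with 0.0273 and 0.0360 FPKM, and Irs4, an insulin receptor substrate, one of 4799 bp with 0.190 and 0.197 FPKM.

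The 171 RING1B peaks that overlapped no peak of CBX7 or CBX6 had a median width of 1169 bp, and 66.7% of them (95% Wilson interval 59.3 to 73.3) were near a start, against 85.5% (84.2 to 86.8) of the 2685 that overlapped all 3 other lists. Their median CpG ratio was 0.543 against 0.604.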
